A study of Mus musculus with 7 samples.

Results

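The genes of MHC class I antigen presentation were examined in RNA from cochlear supporting cells, the non-sensory cells around the hair cells of the inner ear. There were 10 members: the class I heavy chains H2-D1 and H2-K1, their light chain B2m, the peptide transporter subunits Tap1 and Tap2, the loading factor Tapbp, the immunoproteasome subunits Psmb8 and Psmb9, the peptidase Erap1 and the class I transactivator Nlrc5. They were taken by gene symbol from 48709 genes, after gene identifiers without their version had been matched to symbols. All 10 were found, and 7 of them passed the low-count filter that left 14907 genes for testing. Psmb8, Psmb9 and Nlrc5 did not pass and are described by their counts.

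The libraries came from cochleae of mice at postnatal day 1 that had been kept in organ culture for 48 h with a compound or its vehicle. Of the 7 libraries, 2 came from cultures with trichostatin A (TSA) at 200 nM, an inhibitor of histone deacetylases, and 3 from cultures with GSK-343 at 10 µM, an inhibitor of the histone methyltransferase EZH2. The other 2 came from vehicle cultures with DMSO. All groups, controls included, were cultured with the growth factors EGF and FGF and the supplements N2 and B27. The organs were then digested with trypsin and GFP-positive cells were collected by flow sorting. The labels name neither the strain nor the allele that carries GFP, and they do not say whether replicates were separate cultures or animals, so the p-values measure the spread between these libraries, which may be technical.

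MHC class I molecules carry peptides cut from a cell's own proteins to its surface, where cytotoxic T cells inspect them. The proteasome cuts the proteins, the Tap transporter moves the peptides into the endoplasmic reticulum, Erap1 trims them there, and tapasin, the product of Tapbp, helps load them onto a heavy chain paired with beta-2 microglobulin. Nlrc5 acts with RFX, CREB/ATF and NF-Y proteins at a conserved block of promoter elements, and interferons raise most genes of the pathway.

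The libraries held 2724381 and 2963228 expected counts (RSEM's estimates of reads per gene) with TSA, against 3398893 to 4248336 with GSK-343 and 5974230 and 5124247 with DMSO. Protein-coding genes outside the mitochondrial genome held 62.5% and 63.4% of the counts with DMSO, against 78.2% to 93.4% in the treated libraries. Gene length exceeded effective length by a median of 208.21 to 212.69 bases in the 5 treated libraries and by 49 bases in both DMSO libraries, so the effective lengths were set differently for the treated and the DMSO libraries (called the read layout here). Treatment and read layout cannot be told apart in any comparison with DMSO, while TSA and GSK-343 share a layout. The supporting cell label was checked against 25 markers, all of which passed the filter; their summed level was 14200 and 12100 CPM with TSA, against 28300 to 32700 CPM with GSK-343 and 25800 and 21600 CPM with DMSO. CPM here are counts scaled to the TMM-adjusted library size, and TPM are the deposited values, which are also divided by effective length.

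In TSA against GSK-343, 1 of the 7 tested members rose, H2-D1, and 1 fell, Tapbp, against 9.56% of all tested genes called at a Benjamini-Hochberg adjusted p under 0.05 in edgeR's quasi-likelihood test (4.56% higher and 5% lower). Set against DMSO, 3 members rose with TSA (Tap1, H2-D1 and H2-K1) and none fell, where 28.5% of all genes were called (12.8% higher and 15.7% lower). For GSK-343 against DMSO, Tapbp and Tap1 rose and B2m fell, and 39% of all genes were called (17.7% higher and 21.3% lower). Tap1 had no count with DMSO and passed the filter only through the treated libraries, so its calls against DMSO could only be rises. The DESeq2 Wald test called 14.2%, 29.9% and 39.6% of all genes in these 3 comparisons, and an unadjusted p under 0.05 in edgeR's test was reached by 27.8%, 40.6% and 48.4%. The median log2 fold change of the 7 members was 1.40, 1.82 and 0.40 in these 3 comparisons, against 0.00, -0.06 and -0.04 over all tested genes. These comparisons share libraries pairwise and are not independent of one another.

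**Figure D1:**
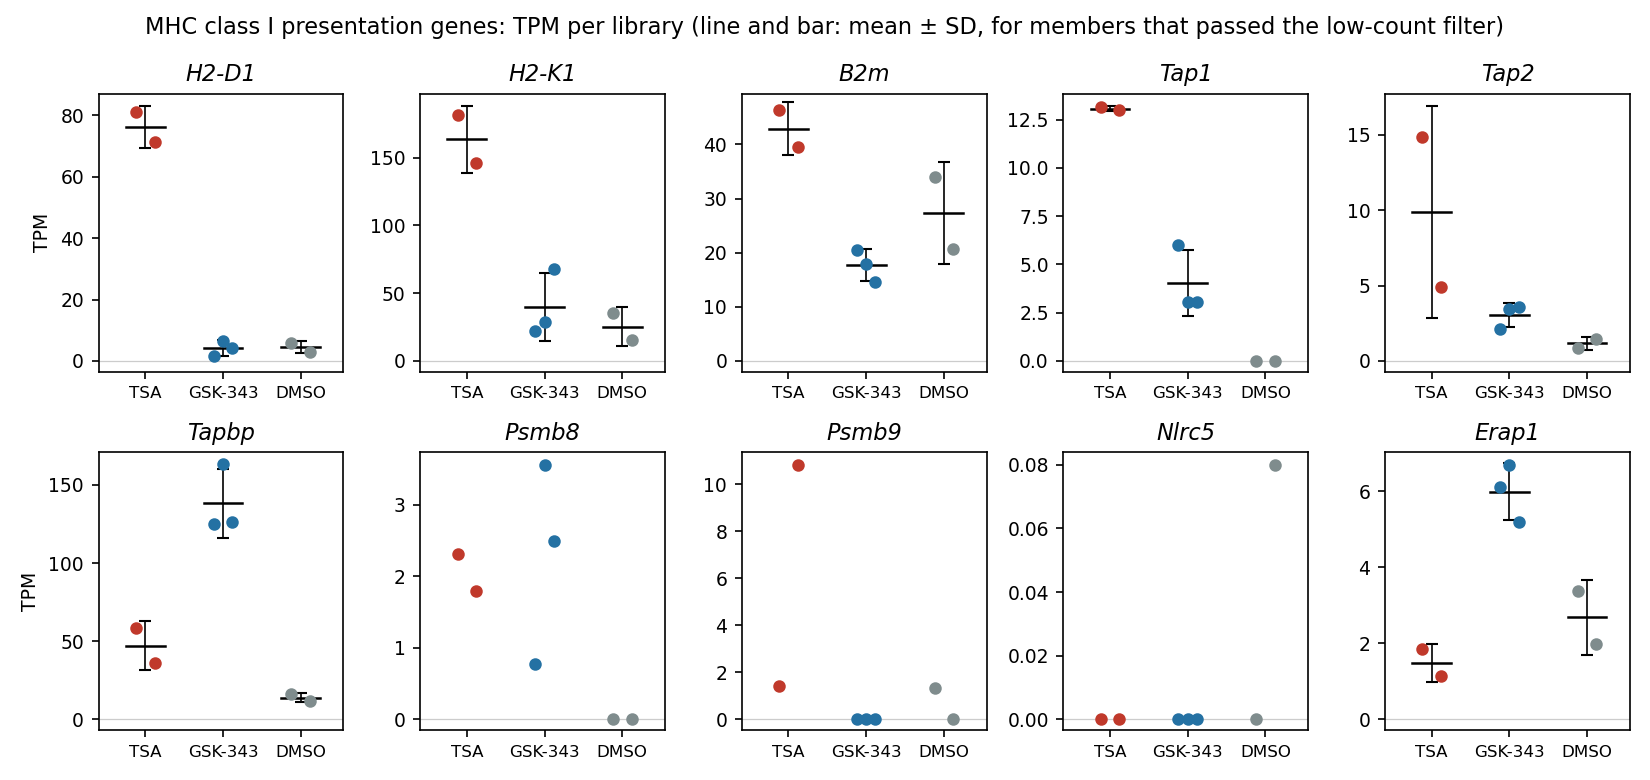
TPM of the 10 members in each library (points), with TSA, GSK-343 and DMSO from left to right. Lines and bars give the mean ± SD (n = 2, 3 and 2) for the 7 members that passed the low-count filter. H2-D1 stood at 81.0 and 71.4 TPM with TSA and below 7 TPM in the other 5 libraries, and Tapbp was highest in the 3 GSK-343 libraries.

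H2-D1 encodes one of the classical heavy chains, which hold the peptide. It had 183 and 196 expected counts with TSA, against 5, 29 and 21 with GSK-343 and 20.1 and 5.04 with DMSO. Its level was 81.0 and 71.4 TPM with TSA, against 1.46, 6.60 and 4.22 TPM with GSK-343 and 5.78 and 3.06 TPM with DMSO. Both TSA libraries stood above all the others, and the GSK-343 and DMSO libraries overlapped. The log2 fold change of H2-D1 was 3.59 ± 0.66 (SE) in TSA against GSK-343, with an adjusted p of 0.0114 in edgeR's quasi-likelihood test, and 4.20 ± 0.80 in TSA against DMSO, with an adjusted p of 0.00338. With each library left out in turn, the adjusted p of the first comparison lay between 0.00649 and 0.0388 and that of the second between 0.000976 and 0.0192. For GSK-343 against DMSO its log2 fold change was 0.61 ± 0.71 (adjusted p = 0.526, edgeR). In bulk RNA, a gene that is higher in each cell and a gene whose cells are more frequent cannot be told apart.

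H2-K1, the other classical heavy chain listed, had the higher TPM of the pair in every library. It stood at 181 and 146 TPM with TSA, against 21.9, 28.4 and 68.2 TPM with GSK-343 and 35.4 and 15.1 TPM with DMSO. The TSA libraries did not overlap the others, but GSK-343 replicate 3 lay well above the other GSK-343 libraries. H2-K1 rose in TSA against DMSO by 1.82 ± 0.58 on the log2 scale (adjusted p = 0.0334, edgeR's quasi-likelihood test). That call was lost without TSA replicate 2 (adjusted p = 0.0583), without DMSO replicate 1 (0.053) and without DMSO replicate 2 (0.163), and after removal of a GC and length trend (0.0634). With TSA relative to GSK-343 its log2 fold change of 1.66 ± 0.51 did not pass (adjusted p = 0.0572, edgeR). Leaving out GSK-343 replicate 3 gave 2.44 (adjusted p = 0.0219) and leaving out TSA replicate 2 gave 1.67 (adjusted p = 0.184). With GSK-343 relative to DMSO the log2 fold change was 0.16 ± 0.52 (adjusted p = 0.836, edgeR).

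H2-D1 took up a larger part of the classical pair with TSA. The ratio of H2-D1 to H2-K1 TPM was 0.447 and 0.490 with TSA, against 0.0668, 0.232 and 0.0619 with GSK-343 and 0.163 and 0.202 with DMSO, so the TSA libraries did not overlap the others. No test was run on this ratio. Reads shared between heavy chains bear on it. Of the 50-base windows of the longest protein-coding transcript, 14.3% for H2-D1 and 8.79% for H2-K1 also occur in another gene, mainly other heavy chains. The counts of both genes were whole numbers in all 5 treated libraries.

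The members' promoters were searched for elements through which the pathway is known to be switched. RefSeq promoter windows of GRCm38.p6, from 250 bases before to 50 bases after the start site, were at hand for 8 of the 10 members, all but Nlrc5 and Tap2. The 250 bases before the start are shown for both classical heavy chains, for B2m and for Tap1, since the results turn on these members. Capitals mark matches on either strand to CCAAT (the Y box, bound by NF-Y), TGACG (the core of the X2 box, bound by CREB/ATF proteins), an interferon response element (GAAA and GAAA with any 2 bases between them) and a kappaB element (GGG and CCC with any 4 bases between them).
H2-D1 (chr17:35262844-35263093, plus strand): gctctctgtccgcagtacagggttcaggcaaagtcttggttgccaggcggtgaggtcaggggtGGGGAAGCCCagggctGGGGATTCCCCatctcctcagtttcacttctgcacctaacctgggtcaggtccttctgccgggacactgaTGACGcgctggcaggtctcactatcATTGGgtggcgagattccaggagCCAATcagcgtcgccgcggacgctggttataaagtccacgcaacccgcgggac
H2-K1 (chr17:34000334-34000583, minus strand): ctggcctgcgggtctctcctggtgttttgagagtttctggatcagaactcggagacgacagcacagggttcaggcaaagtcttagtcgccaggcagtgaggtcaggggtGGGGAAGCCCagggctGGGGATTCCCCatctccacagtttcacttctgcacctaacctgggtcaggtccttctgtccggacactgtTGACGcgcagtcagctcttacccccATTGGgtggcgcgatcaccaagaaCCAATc
B2m (chr2:122147437-122147686, plus strand): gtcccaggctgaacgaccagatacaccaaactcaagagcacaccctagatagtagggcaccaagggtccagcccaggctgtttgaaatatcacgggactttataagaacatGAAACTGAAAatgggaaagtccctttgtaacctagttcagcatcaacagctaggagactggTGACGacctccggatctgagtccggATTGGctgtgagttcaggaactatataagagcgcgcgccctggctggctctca
Tap1 (chr17:34187306-34187555, plus strand): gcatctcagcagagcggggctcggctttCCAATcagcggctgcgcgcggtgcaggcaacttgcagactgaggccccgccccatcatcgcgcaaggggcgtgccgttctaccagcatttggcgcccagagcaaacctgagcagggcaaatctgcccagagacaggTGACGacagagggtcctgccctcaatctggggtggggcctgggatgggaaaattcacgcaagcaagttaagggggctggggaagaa

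A Y box match was present in 6 of the 8 member windows, against 37.4% of all 32851 windows in the table. An X2 core match was present in 5 of the 8 (H2-D1, H2-K1, B2m, Tap1 and Psmb9), against 20.8% of all windows. Tap1 and Psmb9 count the same Y box and X2 core sites, since their windows share 275 bases, so the member windows are not independent. The interferon response element matched in 2, B2m and Erap1 (3.4% of all windows), and the kappaB element in 2, H2-D1 and H2-K1 (11.9% of all windows). Each heavy chain window held 3 kappaB matches, of which the last 2 overlap. In H2-D1, H2-K1 and B2m, TGACG was followed by ATTGG, which is CCAAT on the other strand, with 25 bases from the start of one to the start of the other. That spacing, which was looked for after the matches had been seen, occurs in 31 of the 32851 windows, those of 27 genes. The windows of H2-D1 and H2-K1, aligned without gaps, were identical at 73.3% of 240 bases. A match describes these letters and does not show that a factor was bound, and no match says only that these letters are not in the window.

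Of the 27 genes, 21 passed the low-count filter. Among the class I heavy chain genes, 23 had a promoter window and 3 held the spacing: H2-D1, H2-K1 and H2-M3, which presents formylated peptides. H2-M3 did not pass the filter, with 7 and 4 counts with TSA, against none with GSK-343 and 17 and 0 with DMSO.

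The class I heavy chain genes together rose with TSA. The summed TPM of all 30 heavy chain genes in the tables was 391.7 and 313.5 with TSA, against 97.2, 80.5 and 97.5 with GSK-343 and 71.9 and 53.8 with DMSO. Summing their counts removes the effect of reads moved among these 30 genes. It does not remove that of reads shared with genes outside the sum, such as Gm11131 for H2-Q4 and Gm11127 for H2-T22. The sum rose by 1.47 ± 0.29 on the log2 scale in TSA against GSK-343 (adjusted p = 0.0146, edgeR's quasi-likelihood test) and by 1.53 ± 0.32 in TSA against DMSO (adjusted p = 0.0057). Without TSA replicate 2 the first of these calls was lost (adjusted p = 0.0912). In GSK-343 against DMSO the log2 fold change of the sum was 0.06 ± 0.29 (adjusted p = 0.884, edgeR). Most of the difference lay in the classical pair. With H2-D1 and H2-K1 left out, the sum had a log2 fold change of 0.66 in TSA against GSK-343 (adjusted p = 0.337, edgeR) and of 0.62 in TSA against DMSO (adjusted p = 0.345). With the pair alone in the sum the log2 fold change in TSA against GSK-343 was 2.10 (adjusted p = 0.0236, edgeR).

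**Figure D2:**
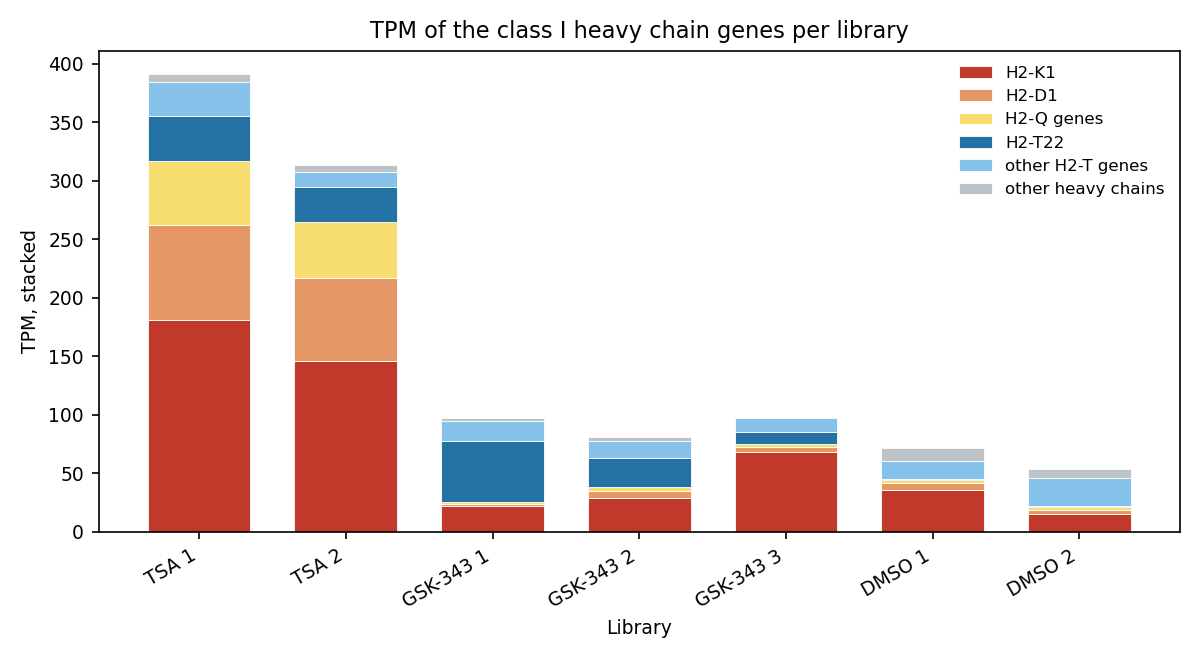
TPM of the class I heavy chain genes in each library, stacked to their sum, with TSA, GSK-343 and DMSO libraries from left to right. H2-D1 and H2-K1 made up most of the sum with TSA (262 and 217 TPM of 391.7 and 313.5), and the non-classical H2-T genes most of it in GSK-343 replicate 1.

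Of the other class I heavy chains and class I-like genes, 25 of the 29 listed were in the tables and 11 were tested. The share called was 9.1% in TSA against GSK-343, 36.4% in TSA against DMSO and 27.3% in GSK-343 against DMSO. Over all tested genes these shares were 9.56%, 28.5% and 39%. In TSA against GSK-343, 1 rose and none fell, and in TSA against DMSO 4 rose and none fell, a count of 1 without TSA replicate 2, 1 without DMSO replicate 1 and 2 without DMSO replicate 2. The gene that rose over GSK-343 was H2-Q2, a non-classical heavy chain, with 42 and 38 counts with TSA, against 1, 0 and 0 with GSK-343 and 6.38 and 2.30 with DMSO. Its adjusted p was 0.0107 in edgeR's quasi-likelihood test (0.0854 without TSA replicate 2), and the ratio of TSA to GSK-343 per scaled depth was 137, with an exact 95% interval of 23.9 to 5480 that covers counting error only. H2-Q6 was at 0 in both DMSO libraries, and its mean with TSA was 11.1-fold a floor of 3 counts per DMSO library (adjusted p = 0.0151, edgeR). That call was lost without TSA replicate 2 (0.19) and without DMSO replicate 1 (0.0774) or 2 (0.0638), and 35.0% of its 50-base windows occur in other genes. H2-Q2 and H2-Q6 passed the low-count filter only through the TSA libraries, where they are high, so their calls are tied to that filter. Mr1, which presents microbial metabolites, rose by 1.90 ± 0.49 in TSA against DMSO (adjusted p = 0.0136, edgeR; 0.0707 without TSA replicate 2 and 0.0958 without DMSO replicate 1).

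H2-T22, a ligand of some gamma delta T cells, was higher with both compounds than with DMSO. It had 94.4 and 77.1 counts with TSA, against 172, 97.3 and 46.7 with GSK-343 and 8.96 and 8.07 with DMSO. It was above DMSO with both compounds, by 3.55 ± 0.75 on the log2 scale with TSA (adjusted p = 0.00565, edgeR's quasi-likelihood test) and by 3.73 ± 0.73 with GSK-343 (adjusted p = 0.00221), and the compounds differed by -0.18 ± 0.59 in TSA against GSK-343 (adjusted p = 0.886). Its 50-base windows are shared with other genes for 44.7%, mainly with H2-T10, and the layouts of the reads differ, so its counts are uncertain. For GSK-343 against DMSO, H2-T24 fell by 2.51 ± 0.65 (adjusted p = 0.00915, edgeR; 0.0515 without DMSO replicate 2). H2-Q10 also fell in that comparison, on 1, 2 and 0 counts with GSK-343 against 14.2 and 11.03 with DMSO (adjusted p = 0.0291, edgeR), and that call was lost without either TSA or either DMSO library (0.111 to 0.153).

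B2m encodes beta-2 microglobulin, the light chain that pairs with class I heavy chains. It had 43 and 42 counts with TSA, against 24, 27 and 25 with GSK-343 and 109 and 64.0 with DMSO, and none of its 50-base windows occurs in another gene. In CPM it averaged 12.2 ± 0.195 with TSA, against 6.38 ± 0.535 with GSK-343 and 20.6 ± 5.51 with DMSO (SD, n = 2, 3 and 2), and no group overlapped another. B2m fell in GSK-343 against DMSO by 1.69 ± 0.54 on the log2 scale (adjusted p = 0.0269, edgeR's quasi-likelihood test). The call was lost without GSK-343 replicate 2 (adjusted p = 0.0653), GSK-343 replicate 3 (0.083) or DMSO replicate 1 (0.139), and with other processing: total count scaling gave -1.22 (0.0932), no low-count filter -1.59 (0.0725), limma on log2(TPM + 1) -0.57 (0.217) and removal of a GC and length trend -0.57 (0.42). With TSA relative to GSK-343 the log2 fold change was 0.93 ± 0.55 (adjusted p = 0.295, edgeR) and in TSA against DMSO -0.76 ± 0.60 (adjusted p = 0.366). The order of TSA and DMSO turned with the scale, since B2m stood at 46.3 and 39.4 TPM with TSA, against 20.5, 17.9 and 14.6 TPM with GSK-343 and 34.0 and 20.7 TPM with DMSO.

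The proportion of light chain to heavy chain RNA differed between libraries. The TPM of B2m was 0.118 and 0.126 of the summed heavy chain TPM with TSA, against 0.211, 0.222 and 0.150 with GSK-343 and 0.472 and 0.386 with DMSO. The 3 groups did not overlap, and the treated groups lay below DMSO. The ratio was not tested, and the step to DMSO crosses the change of layout.

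Tap1 and Tap2 form the transporter that carries peptides across the membrane of the endoplasmic reticulum. Tap1 had 47 and 56 counts with TSA, against 26, 18 and 22 with GSK-343 and none in either DMSO library. A floor of 3 counts was 0.674 and 0.782 CPM in the DMSO libraries and 0.694 to 0.880 CPM in the treated libraries. The mean of Tap1 was 20.3-fold the DMSO floor with TSA and 7.71-fold with GSK-343. Tap1 was called higher than DMSO with both compounds (adjusted p = 0.00145 with TSA and 0.00184 with GSK-343, edgeR's quasi-likelihood test). It passed the low-count filter only through the treated libraries, so a call against DMSO could only be a rise. With TSA it averaged 14.8 ± 2.31 CPM (SD, n = 2) and with GSK-343 5.61 ± 1.56 CPM (SD, n = 3). The TSA libraries stood above the GSK-343 libraries, but the log2 fold change of 1.40 ± 0.70 did not pass (adjusted p = 0.219, edgeR).

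Tap2, the other subunit, was detected in every library. It had 53 and 21 counts with TSA, against 9, 11 and 24 with GSK-343 and 7 and 15.3 with DMSO. In TPM the TSA libraries stood at 14.9 and 4.94, the GSK-343 libraries at 2.12, 3.42 and 3.55 and the DMSO libraries at 0.86 and 1.49. Both TSA libraries stood above the others, and TSA replicate 1 lay well above TSA replicate 2. No comparison of Tap2 passed: its log2 fold change was 1.54 ± 0.80 in TSA against GSK-343 (adjusted p = 0.232, edgeR), 1.93 ± 0.92 in TSA against DMSO (adjusted p = 0.134) and 0.40 ± 0.84 in GSK-343 against DMSO (adjusted p = 0.736). The TPM ratio of Tap1 to Tap2 ranged from 0.859 to 2.83 over the 5 treated libraries and was 0 with DMSO.

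Tap1 lies head to head with Psmb9 in the class II part of the MHC on chromosome 17. In mm10, Tap1 spans chr17:34187553-34197225 on the plus strand and Psmb9 chr17:34181987-34187764 on the minus strand, so their annotated spans overlap. Their RefSeq promoter windows share 275 of 300 bases, with 226 bases between the start sites, and the Y box and X2 core of the Tap1 promoter printed above are also those of Psmb9. Of the 50-base windows of Psmb9, 12.5% occur in Tap1, and whether the counting used strand is not given in the sources used here. Psmb8 at chr17:34197721-34201454 and Tap2 at chr17:34203527-34216321, both on the plus strand, follow Tap1. H2-K1 (chr17:33996017-34000347, minus strand), Tapbp (chr17:33915899-33929292, plus strand) and H2-D1 (chr17:35262730-35267499, plus strand) are on the same chromosome, while B2m (chr2:122147686-122153083), Nlrc5 (chr8:94434356-94527272) and Erap1 (chr13:74639568-74693201) are not.

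Tapbp encodes tapasin, which bridges the transporter and the heavy chain while peptide is loaded. Its pattern differed from that of the heavy chains: it was highest with GSK-343. It stood at 58.3 and 36.0 TPM with TSA, against 125, 163 and 126 TPM with GSK-343 and 16.0 and 11.97 TPM with DMSO, and no group overlapped another. Tapbp fell in TSA against GSK-343 by 1.90 ± 0.34 on the log2 scale (adjusted p = 0.0103, edgeR's quasi-likelihood test; 0.0936 without TSA replicate 2). With GSK-343 relative to DMSO it rose by 2.61 ± 0.35 (adjusted p = 0.00025, edgeR), and that call was kept with each library left out in turn. In TSA against DMSO its log2 fold change was 0.72 ± 0.35 (adjusted p = 0.146, edgeR). Of its 50-base windows 21.02% occur in another gene, mainly Gm19412, and its expected count was not whole in 5 of the 7 libraries.

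The chaperones and quality control factors that assist loading were measured by 11 listed genes, all tested. The share called was 27.3% in TSA against GSK-343, 18.2% in TSA against DMSO and 45.5% in GSK-343 against DMSO. Over all tested genes these shares were 9.56%, 28.5% and 39%. In TSA against GSK-343, none rose and 3 fell: Ganab, a glucosidase that trims glycans on new glycoproteins, by 1.39 ± 0.32 (adjusted p = 0.0225, edgeR's quasi-likelihood test), Calr, the lectin chaperone calreticulin of the loading complex, by 1.29 ± 0.33 (0.033), and Sppl3, a protease that acts on glycosyltransferases, by 1.36 ± 0.37 (0.0392). In GSK-343 against DMSO, 5 rose (2 without DMSO replicate 2, and 3 when DMSO replicate 1 or replicate 2 or 3 of GSK-343 was left out) and none fell, led by Uggt1, which re-tags misfolded glycoproteins, at 1.80 ± 0.35 (adjusted p = 0.00203, edgeR). In TSA against DMSO, Uggt1 rose by 1.46 ± 0.36 (adjusted p = 0.0119) and Hspa5, the general chaperone BiP, fell by 1.08 ± 0.38 (0.0481). No loading gene was called in TSA against GSK-343 without TSA replicate 2, without GSK-343 replicate 3 or by limma on log2(TPM + 1), and 1 was under total count scaling and without GSK-343 replicate 2 or DMSO replicate 1. Without DMSO replicate 1 or 2 neither call in TSA against DMSO was left.

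Psmb8 and Psmb9 are catalytic subunits that replace Psmb5 and Psmb6 when a proteasome is built as an immunoproteasome. Both had few counts. Psmb8 had 2 and 5 counts with TSA, against 2, 5 and 5 with GSK-343 and none with DMSO. With TSA its mean was 1.39-fold a floor of 3 counts per DMSO library, and for GSK-343 this was 1.35-fold. In TSA replicate 1 it stood at 0.56 CPM and in GSK-343 replicate 1 at 0.567 CPM, below that floor (0.728 CPM on average). Psmb9 had 3 and 7 counts with TSA, against none in the 3 GSK-343 libraries and 2 and 0 with DMSO. Its mean with TSA was 1.91-fold a floor of 3 counts per GSK-343 library. These ratios use the observed mean and leave out its counting error, so they are not lower bounds.

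The constitutive partners were at higher TPM than the immunoproteasome subunits in every library. Psmb5 stood at 47.4 and 12.9 TPM with TSA, against 82.1, 75.7 and 67.8 TPM with GSK-343 and 24.1 and 34.9 TPM with DMSO. The TPM ratio of Psmb8 to Psmb5 was 0.0487 and 0.139 with TSA, against 0.0095, 0.047 and 0.0369 with GSK-343 and 0 in both DMSO libraries. The ratio of Psmb9 to Psmb6 was 0.0334 and 0.222 with TSA, against 0 in all GSK-343 libraries and 0.0201 and 0 with DMSO. Both ratios were higher in the TSA libraries than in all the others, the first by a narrow margin (0.0487 against 0.047), and they rest on 2 to 7 counts of the immunoproteasome subunit. Psmb10, the third such subunit, had 0 and 1 counts with TSA, against 2, 6 and 57 with GSK-343 and 3 and 0 with DMSO, so 1 library held most of its counts.

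**Figure D3:**
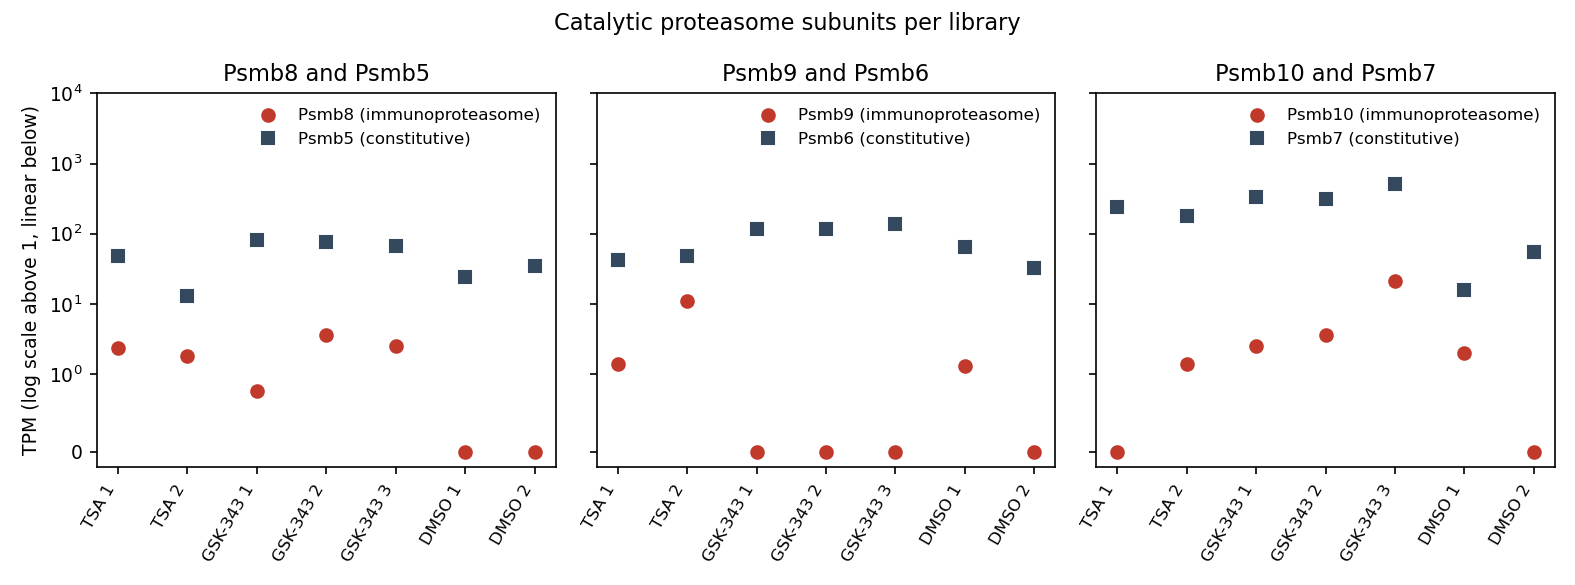
TPM of the 3 immunoproteasome subunits (circles) and of the constitutive subunits they replace (squares) in each library, on an axis that is logarithmic above 1 TPM and linear below. The immunoproteasome subunit was below its constitutive partner in every library, and Psmb9 was at 0 in the 3 GSK-343 libraries.

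Other genes of the proteasome and of peptide trimming gave 17 tested of 18 listed. The share called was 17.6% in TSA against GSK-343, 41.2% in TSA against DMSO and 35.3% in GSK-343 against DMSO. Over all tested genes these shares were 9.56%, 28.5% and 39%. With TSA relative to GSK-343, none rose and 3 fell: Psme1, a subunit of the interferon-inducible proteasome activator, by 2.27 ± 0.44 (adjusted p = 0.0143, edgeR's quasi-likelihood test), Psmb6 by 1.74 ± 0.45 (0.0344) and the aminopeptidase Lap3 by 1.16 ± 0.34 (0.0496). Psme1 had 38 and 23 counts with TSA, against 104, 196 and 212 with GSK-343 and 279 and 228 with DMSO. It also fell in TSA against DMSO, by 2.81 ± 0.47 (adjusted p = 0.0017, edgeR), where 3 genes of the list rose and 4 fell, against 1 and 3 without TSA replicate 2, 2 and 2 without TSA replicate 1 and 1 and 1 without DMSO replicate 1. For GSK-343 against DMSO, 4 rose and 2 fell. Psma1, a structural subunit, rose over DMSO with both compounds (2.70 ± 0.39 with TSA, adjusted p = 0.000771, and 2.85 ± 0.38 with GSK-343, adjusted p = 0.000232, edgeR). No gene of the list was called in TSA against GSK-343 without TSA replicate 2, 1 fell without GSK-343 replicate 2 or 3, and Lap3 lost its call without any 1 of the 7 libraries (adjusted p = 0.0621 to 0.331). The balance of that comparison turned with the scale: 2 genes of the list rose and 1 fell under total count scaling, 2 rose and 3 fell without the low-count filter, and 1 rose and none fell by limma on log2(TPM + 1).

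Erap1 trims peptides to the length that fits the class I groove, and it was lowest with TSA. It had 10 and 7 counts with TSA, against 42, 59 and 52 with GSK-343 and 53 and 30 with DMSO. In CPM it averaged 2.43 ± 0.529 with TSA, against 12.8 ± 1.39 with GSK-343 and 9.86 ± 2.89 with DMSO (SD, n = 2, 3 and 2), and the TSA libraries did not overlap the others. Neither difference passed the threshold: the log2 fold change was -2.38 ± 0.70 in TSA against GSK-343 (adjusted p = 0.0504, edgeR's quasi-likelihood test) and -2.01 ± 0.73 in TSA against DMSO (adjusted p = 0.0556). With GSK-343 relative to DMSO it was 0.37 ± 0.62 (adjusted p = 0.663). Of its 50-base windows 14.0% occur in Cast, the gene of calpastatin.

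Of the tested members, all 7 had CPM that did not overlap between TSA and GSK-343, 5 higher and 2 lower, where 46.3% of all tested genes do not overlap (23.5% higher and 22.9% lower). Against DMSO all 7 did not overlap with TSA either, 5 higher and 2 lower, against 68.6% of all tested genes (33% higher and 35.6% lower). Between GSK-343 and DMSO, 2 were higher, 1 was lower and 4 overlapped, against 60.7% of all genes not overlapping (28.6% higher and 32.1% lower). The 5 members higher with TSA than with GSK-343 were H2-D1, H2-K1, B2m, Tap1 and Tap2, and the 2 lower were Tapbp and Erap1.

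**Figure D4:**
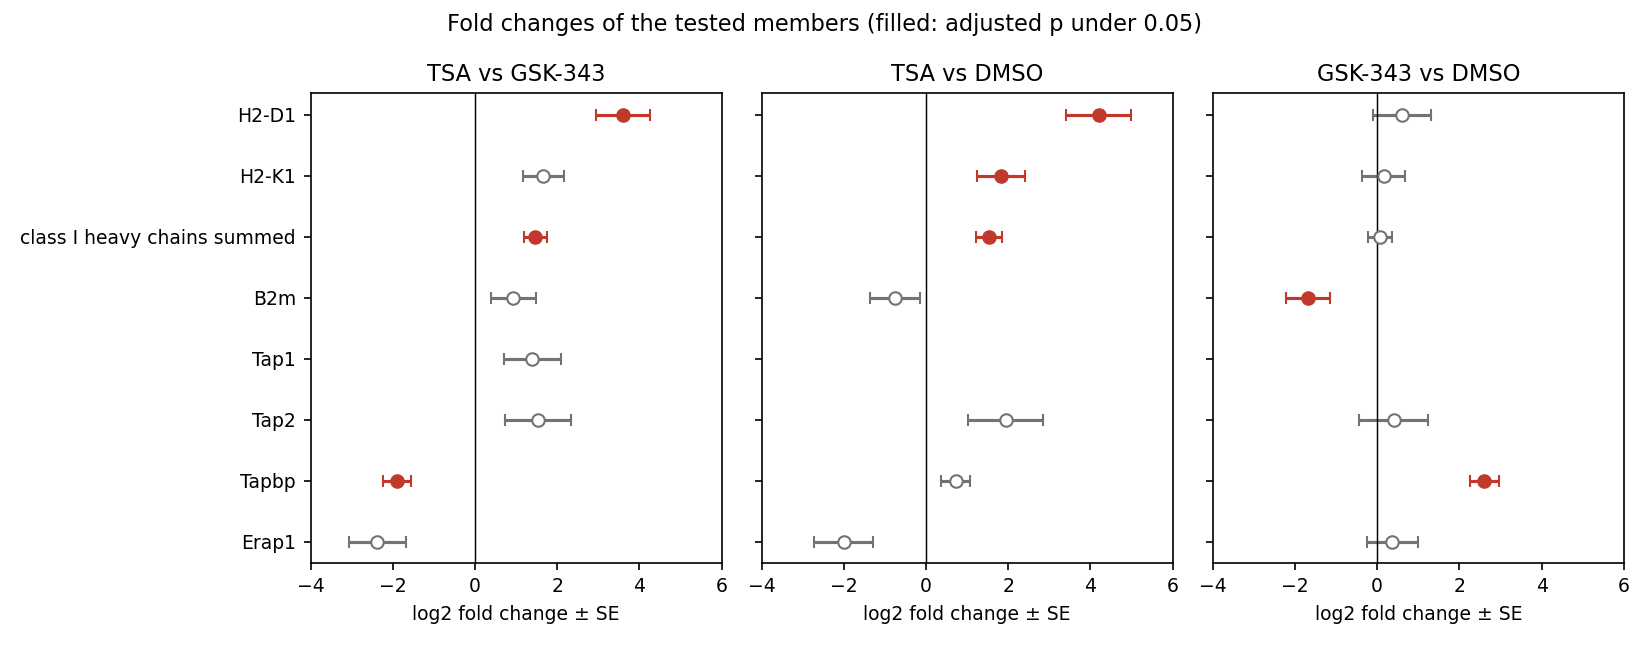
Log2 fold changes ± SE from edgeR's quasi-likelihood fit for the tested members and for the summed class I heavy chains in the 3 comparisons; filled red points have an adjusted p under 0.05. Tap1 against DMSO is not drawn, since Tap1 had no count with DMSO. H2-D1 is at 3.59 and 4.20 in the TSA comparisons, and Tapbp is at -1.90 in TSA against GSK-343 and at 2.61 in GSK-343 against DMSO.

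Nlrc5, the class I transactivator, was not detected in the treated libraries: it had 0 counts in all 5, and 0 and 2 counts with DMSO. A floor of 3 counts corresponds to 0.86 CPM on average with TSA, against 0.758 CPM with GSK-343 and 0.728 CPM with DMSO. In a library with no count, a level up to about this floor cannot be told from none. No fold change is given for it.

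Regulators of class I genes gave 24 tested of 26 measured. The share called was 12.5% in TSA against GSK-343, 12.5% in TSA against DMSO and 37.5% in GSK-343 against DMSO. Over all tested genes these shares were 9.56%, 28.5% and 39%. Among the 24, 2 rose and 1 fell in TSA against GSK-343. Stat2, a signal transducer of type I interferon, rose by 1.97 ± 0.48 (adjusted p = 0.0277, edgeR's quasi-likelihood test), with 235 and 205 counts with TSA, against 58, 98 and 34 with GSK-343 and 127 and 64 with DMSO. Jak1, a kinase of the interferon receptors, rose by 1.18 ± 0.34 (0.0461), and Rela, an NF-kappaB subunit, fell by 2.21 ± 0.54 (0.0277). No regulator was called without TSA replicate 2 or without GSK-343 replicate 3, and 1 was called without GSK-343 replicate 2. In TSA against DMSO, Rfxap, a subunit of the RFX complex, rose by 2.60 ± 0.48 (adjusted p = 0.0028, edgeR), and Atf1, of the CREB/ATF family, fell by 3.56 ± 0.47 (0.000468). Rfxap rose and Atf1 fell in GSK-343 against DMSO too, by 2.73 ± 0.46 (adjusted p = 0.000988, edgeR) and 2.93 ± 0.39 (0.000243), among 7 regulators that rose and 2 that fell. The 7 were 1 without DMSO replicate 1 and 3 without GSK-343 replicate 3.

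Interferon-induced genes outside the pathway gave 12 tested of 27 listed. The share called was 16.7% in TSA against GSK-343, 8.3% in TSA against DMSO and 16.7% in GSK-343 against DMSO. Over all tested genes these shares were 9.56%, 28.5% and 39%. In TSA against GSK-343, 2 rose and none fell, the antiviral gene Ifit2 and the RNA sensor Ifih1. Ifit2 had 20 and 8 counts with TSA, against 0, 0 and 1 with GSK-343 and 82 and 15 with DMSO. Ifih1 had 36 and 10 counts with TSA, against 0, 2 and 0 with GSK-343 and 10 and 17 with DMSO. The ratio of TSA to GSK-343 per scaled depth was 48.0 for Ifit2 (exact 95% interval 7.94 to 1960) and 39.4 for Ifih1 (10.3 to 335), with adjusted p of 0.0296 and 0.0301 in edgeR's quasi-likelihood test. Both calls were lost without TSA replicate 1 (adjusted p = 0.103 and 0.311), TSA replicate 2 (0.0661 and 0.0938) or GSK-343 replicate 3 (0.0517 and 0.0779). Both genes fell in GSK-343 against DMSO (adjusted p = 0.00188 and 0.0225, edgeR), Ifih1 not without TSA replicate 1 (0.092), GSK-343 replicate 1 (0.0502), GSK-343 replicate 3 (0.0656) or DMSO replicate 2 (0.104). Of the 12 genes, 1 was called in TSA against DMSO: Ube2l6, the conjugating enzyme of the ubiquitin-like protein Isg15, rose by 3.66 ± 1.07 (adjusted p = 0.0239, and 0.079 to 0.195 without either TSA or either DMSO library).

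MHC class II genes were sparse. Their calls stand beside 9.56% of all tested genes in TSA against GSK-343, 28.5% in TSA against DMSO and 39% in GSK-343 against DMSO. Of 12 listed, 4 were tested, and edgeR's quasi-likelihood test called none in TSA against GSK-343 or in TSA against DMSO, with 2 and 1 of them at an unadjusted p under 0.05 and none called by the DESeq2 Wald test. Other settings called some in TSA against GSK-343. The higher ones were 2 of 4 after removal of a GC and length trend, 1 under total count scaling, 1 among protein-coding nuclear genes and 3 of 9 by limma on log2(TPM + 1), while 1 of 12 was called lower without the low-count filter. In GSK-343 against DMSO, H2-DMa, which loads class II molecules, rose by 2.21 ± 0.73 (adjusted p = 0.0298; 0.115 without GSK-343 replicate 1 and 0.148 without DMSO replicate 1). Cd74, the invariant chain, fell, with 0, 0 and 1 counts with GSK-343 against 37.5 and 35 with DMSO (adjusted p = 0.0017, edgeR) and 6 and 7 with TSA. Ciita, the class II transactivator, had 6 and 2 counts with TSA, against 0, 1 and 0 with GSK-343 and 34.0 and 9 with DMSO.

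Class I genes are high in leukocytes and endothelium, so markers of those cells were measured beside them. Among tested leukocyte markers 20% were called in TSA against DMSO and none in the other comparisons. Among tested endothelial markers 20% were called in TSA against DMSO and 40% in GSK-343 against DMSO. Over all tested genes the shares were 28.5% in TSA against DMSO and 39% in GSK-343 against DMSO. All 18 leukocyte and macrophage markers were in the tables, and their summed level was 30.2 and 19.4 CPM with TSA, against 51.8, 12.7 and 59.4 CPM with GSK-343 and 26.3 and 42.0 CPM with DMSO. The TSA libraries lay within the range of the other groups, and 5 and 11 of the 18 markers were at 0 with TSA, against 7, 13 and 4 with GSK-343 and 2 and 3 with DMSO. Ptprc, the defining marker CD45, had 5 and 3 counts with TSA, against 3, 0 and 10 with GSK-343 and 13 and 26 with DMSO. The 5 leukocyte markers tested included 1 that rose in TSA against DMSO, Coro1a, by 3.99 ± 1.09 (adjusted p = 0.0174, edgeR's quasi-likelihood test), with 57 and 38 counts with TSA, against 28, 6 and 20 with GSK-343 and 6 and 1 with DMSO. That call was lost without TSA replicate 1 (adjusted p = 0.0689) or DMSO replicate 2 (0.0771). Of the other tested leukocyte markers, Csf1r, Lyz2 and Cd68 were lower in that comparison (log2 fold changes of -3.001, -1.87 and -0.965). Laptm5 was higher (1.06), and none of these was called. The 10 endothelial markers summed to 19.9 and 15.0 CPM with TSA, against 9.92 to 14.6 CPM with GSK-343 and 38.6 and 40.9 CPM with DMSO. The TSA libraries lay narrowly above GSK-343 and below DMSO. In TSA against GSK-343 none of the 5 tested was called. Flt1 and Kdr were higher there (adjusted p = 0.0502 and 0.0553, edgeR), and Emcn and Pecam1 lower (0.271 and 0.354). Emcn fell in TSA against DMSO (adjusted p = 0.0271, edgeR, but 0.0605 by limma). Flt1 and Kdr fell in GSK-343 against DMSO (0.00331 and 0.00774, edgeR, and for Kdr 0.103 by limma). Kdr had no count with GSK-343. H2-D1 and H2-K1 together stood at 151 and 155 CPM with TSA, against 17.0, 28.5 and 61.0 CPM with GSK-343 and 41.8 and 19.8 CPM with DMSO.

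**Figure D5:**
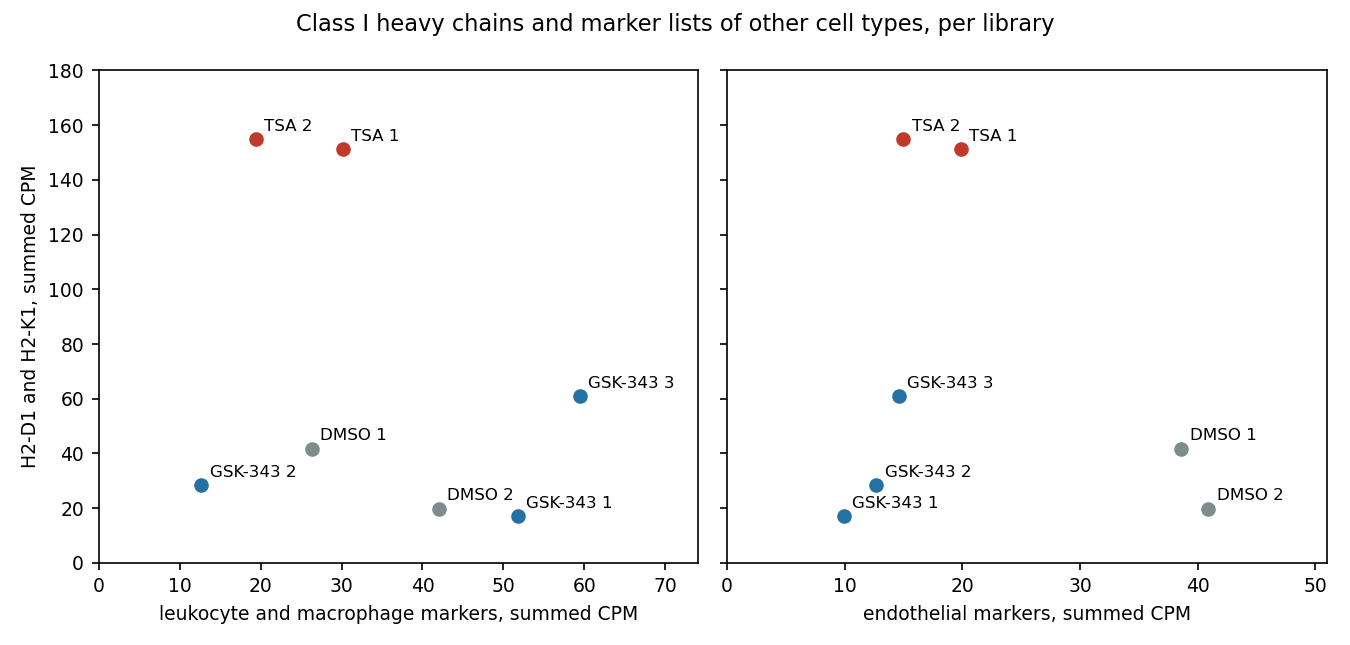
Summed CPM of H2-D1 and H2-K1 (vertical axis) against the summed CPM of 18 leukocyte and macrophage markers (left) and of 10 endothelial markers (right), 1 point per library. The TSA libraries hold 151 and 155 CPM of the heavy chains at 30.2 and 19.4 CPM of leukocyte markers, and the GSK-343 libraries reach 59.4 CPM of those markers at 61.0 CPM of the heavy chains or less. On the right the TSA libraries stand at 19.9 and 15.0 CPM of endothelial markers, against 9.92 to 14.6 CPM with GSK-343 and 38.6 and 40.9 CPM with DMSO.

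Markers of other cochlear cells were measured too. In TSA against GSK-343, 40% of tested supporting cell markers, 25% of neuronal and no hair cell markers were called, against 9.56% of all genes. In TSA against DMSO the shares were 44%, 50% and 63.6%, against 28.5% of all genes. The 9 neuronal markers summed to 552 and 412 CPM with TSA, against 254, 72.5 and 175 CPM with GSK-343 and 73.4 and 70.4 CPM with DMSO, and 2 of the 8 tested rose in TSA against GSK-343. The 12 hair cell markers summed to 1940 and 574 CPM with TSA, against 432 to 1090 CPM with GSK-343 and 391 and 332 CPM with DMSO. Of the 25 supporting cell markers, 10 fell and none rose in TSA against GSK-343, and the 10 were 2 without TSA replicate 2, 6 without GSK-343 replicate 2 and 5 without GSK-343 replicate 3. In TSA against DMSO, 7 of 11 tested hair cell markers rose (1 rose and 1 fell without TSA replicate 1, and 2 rose without DMSO replicate 2) and 4 of 8 neuronal markers rose, with none of either list lower in the fit of all libraries. Of the supporting cell markers, 11 of 25 fell and none rose in that comparison (7 fell and 4 rose under total count scaling). The Schwann cell markers summed to 312 and 327 CPM with TSA, against 498 to 930 CPM with GSK-343 and 200 and 261 CPM with DMSO, and mesenchymal markers to 303 and 136 CPM with TSA, against 202 to 327 CPM with GSK-343 and 250 and 229 CPM with DMSO. The part of these shifts in the class I values was not tested.

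The genes whose profiles over the 7 libraries were most like those of the members are given as a description, by the root mean square difference of centred log2 CPM among 10664 genes. For H2-D1 they were Parvb (0.563), Maneal (0.605) and Ptges (0.624), and for H2-K1 Kyat3 (0.308), Ptk2b (0.383) and Grk5 (0.388). B2m had the closest neighbours, Snx13 (0.085), Zfp60 (0.086) and Fam169a (0.13). For Tap1 they were Hspa12a (0.28), Gpr19 (0.297) and Slc22a5 (0.338), and for Tap2 Ccdc181 (0.215), Slc9a9 (0.221) and Gga2 (0.283). Tapbp was closest to Itgb5 (0.164), Unc119 (0.167) and Slc39a7 (0.225), and Erap1 to Ldha (0.214), Vasn (0.224) and Kdelr1 (0.232). No gene is listed for more than 1 member.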

How the data were processed

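RNA was measured in 7 libraries, in 3 groups set by the labels. The authors aligned reads with STAR to mm10 and quantified genes with RSEM, per the submitters' processing notes, which also name DESeq2; versions and the annotation release are not given in the sources used here. The deposited expected counts are estimated counts per gene in which RSEM shares ambiguous reads between genes, and the deposited TPM are divided by effective length and scaled to a common sum, per the file headers. The lengths and effective lengths are the authors' values in bases.

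Identifiers without version matched GENCODE M21 for 48349 of 48709 genes. Expected counts were rounded and fitted with edgeR 4.0.16 in R 4.3.3 (TMM scaling, filterByExpr, quasi-likelihood test on all 7 libraries, Benjamini-Hochberg adjustment over 14907 genes, threshold 0.05). The steps were tested on simulated data. Genes nearly absent from a group, such as Tap1, H2-Q2, H2-Q6, Ifih1, Cd74 and Kdr, passed the filter through their high libraries. Their calls are tied to that filter. Residual degrees of freedom were 4 and the common biological coefficient of variation 0.43. CPM use TMM-scaled library sizes, and a floor of 3 counts was 0.674 to 0.880 CPM per library. Intervals (exact, 95%) cover counting error only, and ratios to a floor use observed means without their error. Alternatives were DESeq2 1.42.0, limma 3.58.1 on log2(TPM + 1), other scalings, no filter, a replicate block, subsets of libraries and genes, and a GC and length trend. Alternatives for the heavy chain sum and for genes of the other lists and marker sets, and a robust dispersion prior, were chosen after seeing the data.

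All members were named in every comparison, and of each other list up to 3 genes with the smallest adjusted p among those called. Further list genes (H2-M3, Psmb5, Psmb10, Ciita, Ptprc, endothelial markers in TSA against GSK-343 and uncalled leukocyte markers in TSA against DMSO) were named after their values were seen. The members and lists were chosen with earlier results of these data known. Shared sequence was counted as 50-base windows of the longest protein-coding transcript of a gene that occur in any other gene. No pair of libraries within a group agreed within sampling noise.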

Additional observations from a re-analysis of the deposited data

How the results depend on the processing

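Across the alternatives, H2-D1 was called higher with TSA than with GSK-343 and with DMSO, Tap1 was called higher than DMSO with both compounds and Tapbp was called higher with GSK-343 than with DMSO wherever they were fitted as separate genes. In the filtered fits Tap1 passed only through the treated libraries, so those calls could only be rises. In TSA against GSK-343, H2-K1 and Erap1 lay close to the threshold: 4 members in place of 2 were called by the DESeq2 Wald test, with the 2 groups alone, after removal of a GC and length trend, among protein-coding nuclear genes and with a robust dispersion prior, a setting added after seeing the data, and 1 to 3 with 1 library left out. In TSA against DMSO, 5 members in place of 3 were called under total count scaling and 6 by limma on log2(TPM + 1), which called 7530 genes against 4252; 2 to 3 were called with 1 library left out. In GSK-343 against DMSO the range was 2 to 3. Over all genes, leaving out 1 library gave 159 (without TSA replicate 2) to 1878 calls in TSA against GSK-343, 2058 (without TSA replicate 2) to 5124 in TSA against DMSO and 4668 to 6405 in GSK-343 against DMSO. Total count scaling moved the median of all genes to 0.20, 0.65 and 0.42 on the log2 scale in these comparisons and split the calls into 947 higher and 378 lower (680 and 745 with TMM), 3782 and 1292 (1912 and 2340), and 3870 and 2263 (2635 and 3174). Of the called genes with the smallest adjusted p in the other pathway lists, up to 3 each, 0 of 12 kept the call with every library left out in turn in TSA against GSK-343, 5 of 12 in TSA against DMSO and 11 of 16 in GSK-343 against DMSO. By limma the splits of calls were 834 and 173, 5039 and 2491, and 4122 and 3164.

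Deviations of same-numbered libraries from their group means correlated at -0.094 to 0.04, and those of other-numbered libraries at -0.092 to 0.094. In a group of 2 the deviations mirror each other, so these few values cannot decide whether the numbers pair the libraries. With the replicate block, 841 genes in place of 1425 were called in TSA against GSK-343, among them no class I regulator in place of 3 and 1 loading gene in place of 3, and B2m lost its call in GSK-343 against DMSO (adjusted p = 0.12, edgeR's quasi-likelihood test), where H2-K1 turned to -0.546 and Tap2 to -0.063.

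Other reversals concerned log2 fold changes that were not called, except Creb1. B2m in TSA against DMSO was 0.666 by limma and 0.306 after the GC and length trend. In GSK-343 against DMSO, H2-D1 was -0.188 by limma and, after the GC and length trend, -0.563, with H2-K1 at -0.90, Tap2 at -0.519 and Creb1 at 0.294. With 1 library left out, H2-K1 ranged from -0.579 (without GSK-343 replicate 3; -0.233 without DMSO replicate 2) to 0.792, and Tap2 from -0.073 (without DMSO replicate 1; -0.056 without GSK-343 replicate 3) to 1.208. The heavy chain sum in that comparison was -0.002 with DESeq2 size factors and -0.04 without H2-D1 and H2-K1. The causes were not tested. Depth limits Psmb8, Psmb9 and Nlrc5, which had at most 7 counts in any library.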
